A study of Mus musculus with 3 samples.

Results

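The miR-30 family was described in visceral white fat of mice by the levels of both strands of its hairpins. The members were the rows with the name of a miR-30a to miR-30e arm (5p of all 5, 3p of all but miR-30c). The rule uses names and no values, though it was set with earlier results of these data known. All 9 were found among the 1251 mature microRNAs (miRNAs) of the deposited table. The members comprised the 5 5p arms (miR-30a-5p, miR-30b-5p, miR-30c-5p, miR-30d-5p and miR-30e-5p) and 4 3p arms (miR-30a-3p, miR-30b-3p, miR-30d-3p and miR-30e-3p). The 2 locus-numbered 3p arms of miR-30c, which are not among the members, are given where a hairpin would otherwise lack its second arm.

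The tissue was epididymal fat of 3 C57BL/6J mice, numbered 1, 3 and 9 by their titles, and small RNA libraries were sequenced from total RNA. From an age of 5 to 6 weeks all mice had eaten a high-fat diet for 11 weeks, with 45% of energy from fat, 20% from protein and 35% from carbohydrate, and the fat was taken after 4 h without food. The diet carried 6.75% EPA (eicosapentaenoic acid, a long-chain omega-3 fat found in fish oil). No control diet was analysed here, so no value measures an effect of EPA, and only the titles tell the samples apart. The p-values below thus speak for the spread among 3 libraries, part or all of which may be technical.

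A miRNA hairpin is cut into a duplex whose 5p and 3p strands compete for loading into an Argonaute protein, and the loaded strand finds messenger RNAs mainly by its seed, bases 2 to 8. Members of the miR-30 family carry one seed on their 5p arm and are known as promoters of adipocyte formation, in part by repressing the bone-lineage factor Runx2. miR-30b and miR-30c are also known to support the thermogenic program of brown and beige fat by repressing the corepressor Nrip1 (RIP140).

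The 5p sequences, from RefSeq on GRCm38.p6 and with the seed in capitals, show what 3 of the 5p arms share and where they differ. A mature sequence was matched for 5 of the 9 members and for both 3p arms of miR-30c. None was matched for either arm of miR-30b and miR-30d, so the sequences of these members were not compared here.
miR-30a-5p: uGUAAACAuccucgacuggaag
miR-30e-5p: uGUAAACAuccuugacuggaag
miR-30c-5p: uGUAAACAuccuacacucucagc

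These 3 arms hold the seed GUAAACA and have their first 12 bases in common. miR-30a-5p and miR-30e-5p are identical at 21 of 22 bases and differ by C13U, counted from 1 at the 5′ end of miR-30a-5p. Reads of these 2 members are thus told apart by 1 base, and no source used here gives how many mismatches the authors' counting allowed. miR-30a-5p and miR-30c-5p agree at 17 of 22 bases compared without gaps.

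The 3p arms split into different seeds, which are again in capitals.
miR-30a-3p: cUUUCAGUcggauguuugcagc
miR-30e-3p: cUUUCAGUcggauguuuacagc
miR-30c-1-3p: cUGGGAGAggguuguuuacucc
miR-30c-2-3p: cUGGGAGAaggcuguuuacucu

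miR-30a-3p and miR-30e-3p share the seed UUUCAGU and differ by G18A, counted from the 5′ end of miR-30a-3p. The miR-30c 3p arms share the seed UGGGAGA and differ by G9A, U12C and C22U, from miR-30c-1-3p to miR-30c-2-3p. The seeds of the 5p arms, of miR-30a-3p and miR-30e-3p, and of the miR-30c 3p arms are thus 3 different ones. The only other listed miRNA with the seed GUAAACA among 1001 rows with a matched sequence was miR-384-5p. It lay at the lowest value of the scale in mice 1, 3 and 9.

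The hairpins lie in 3 pairs on GRCm38 (the assembly of mm10), by GENCODE M21. Mir30a lies at chr1:23272269-23272339 on the plus strand outside any annotated host gene, and Mir30c-2 lies 19361 bases from it at chr1:23291701-23291784, in an exon of the long noncoding RNA gene Gm27028. Mir30e at chr4:120772606-120772697 and Mir30c-1 at chr4:120769534-120769622, both on the minus strand, are 2983 bases apart in the annotation of Nfyc, which encodes a subunit of the transcription factor NF-Y, and both are intronic. Mir30d at chr15:68341208-68341289 overlaps an exon of the long noncoding RNA gene Gm20732. Mir30b at chr15:68337415-68337510 is intergenic and 3697 bases away on the same minus strand. miR-30c-5p is encoded identically by Mir30c-1 and Mir30c-2, so its level cannot be divided between chromosomes 1 and 4.

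Values are deposited log2 normalized counts with a floor of 3.32, which is 10 on the linear scale. A normalized count below is the linear value above that floor. Sorted columns of the 3 mice were nearly equal (85 of the top 100 ranks held one value in all mice within 1e-06), so a difference between mice is close to a difference of ranks, and ranks are given beside the levels. The design text gives about 13.8 M mapped reads per sample, but the normalized values do not give the depth of each library, so no counting interval is printed. Small RNA ligation captures sequences unequally, so levels of different arms are compared as read out, not as molecules.

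All 5 of the 5p arms were abundant in this fat. miR-30a-5p read 16.18 log2 units in mice 1, 3 and 9 alike, or 74051 normalized counts, and held rank 9 in each mouse. Of the 194 miRNAs that averaged 100 or more normalized counts, it alone kept one rank in all 3 mice. miR-30d-5p read 15.47 in mouse 1, 15.70 in mouse 3 and 15.70 in mouse 9, at ranks 14, 12 and 12. Mouse 1 was the lowest for miR-30d-5p, by 0.23 log2 units.

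miR-30c-5p, the product of 2 hairpins, read 14.75, 14.75 and 14.41 in mice 1, 3 and 9 (ranks 19, 19 and 21). miR-30e-5p read 12.65, 12.65 and 12.45 (ranks 43, 43 and 46). For both of them mice 1 and 3 were equal and mouse 9 was the lowest. miR-30b-5p, the least abundant 5p arm, read 11.81, 12.00 and 11.75 (ranks 56, 53 and 57), with mouse 3 the highest.

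The 3p arms spread over a far wider range than the 5p arms, from well above most miRNAs down to the floor. miR-30a-3p read 11.21, 11.29 and 11.51 in mice 1, 3 and 9 (ranks 67, 66 and 61). miR-30e-3p read 9.59, 9.80 and 9.27 (ranks 99, 95 and 108). Both were above the floor in every mouse, and mouse 9 was the highest for miR-30a-3p and the lowest for miR-30e-3p.

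The 3p arms of the chromosome 15 hairpins were barely seen. miR-30d-3p stood at the floor of 3.32 in mouse 1 and read 5.92 in mouse 3 and 5.20 in mouse 9, or 50.5 and 26.8 normalized counts. miR-30b-3p stood at the floor in mice 1 and 3 and read 3.62 in mouse 9, or 2.27 normalized counts. An arm at the floor was not detectable in that library and may still be present below it. Of the 9 members, 7 passed the mean of 100 normalized counts, and miR-30d-3p and miR-30b-3p did not.

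**Figure D1:**
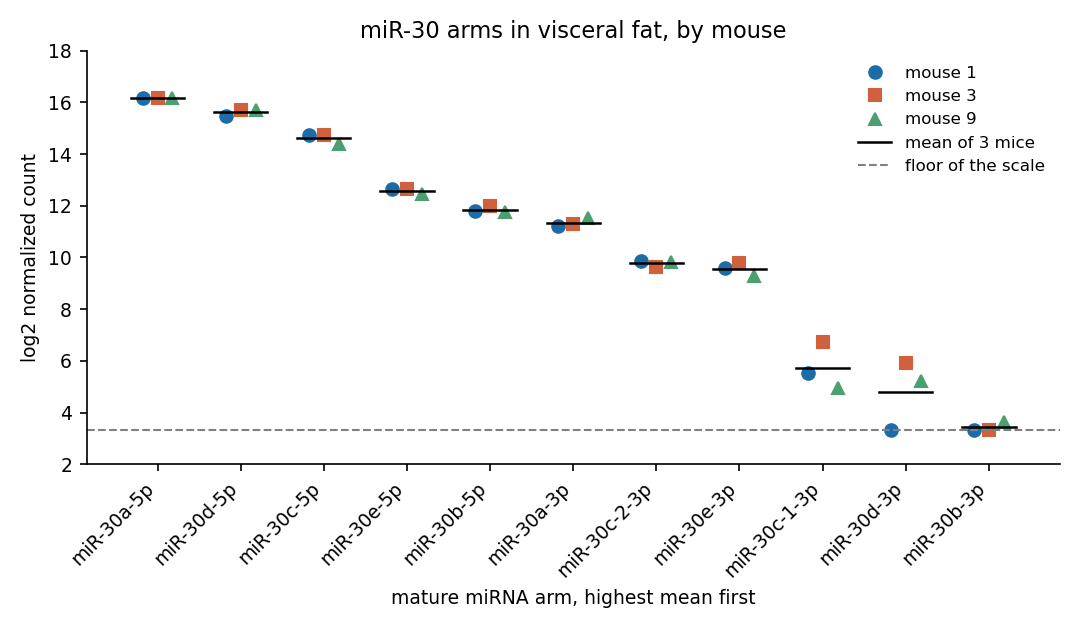
Log2 normalized count (vertical axis) of the 9 miR-30 members and the 2 miR-30c 3p arms (horizontal axis, highest mean first) in mice 1, 3 and 9 (points), with the mean of 3 mice (bar) and the floor of the scale at 3.32 (dashed). The 5p arms lie between 11.75 and 16.18 with little spread, while miR-30c-1-3p lies between 4.96 and 6.72, and miR-30d-3p and miR-30b-3p reach the floor in 1 and 2 mice.

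The median of the 9 means was 11.85 log2 units, against 6.86 for the 363 miRNAs seen in at least 1 mouse and 9.71 for the 194 that averaged 100 or more. The median of the 5p arms was 14.63 and that of the 3p arms 7.19.

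The order of the members was the same in the 3 mice except at its lower end. By mean it ran miR-30a-5p, miR-30d-5p, miR-30c-5p, miR-30e-5p, miR-30b-5p, miR-30a-3p, miR-30e-3p, miR-30d-3p and miR-30b-3p, and 7 of the 8 neighbouring pairs kept one direction in 3 of 3 mice with values that did not overlap. The smallest of those 7 steps were miR-30b-5p above miR-30a-3p, by 0.51 ± 0.25 log2 units, and miR-30a-5p above miR-30d-5p, by 0.56 ± 0.13 (SD, n = 3). The step from miR-30d-3p to miR-30b-3p was 1.39 ± 1.31 with both at the floor in mouse 1, and their values overlapped. An exact sign-flip test, two-sided, gave p = 0.25 for each of the 7 pairs, the lowest value 3 mice permit, and 0.286 after Benjamini-Hochberg adjustment over the 8 pairs. No step can therefore pass a threshold of 0.05.

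The pool of miR-30 5p arms made up 6.52% of the summed normalized value in mouse 1, 6.86% in mouse 3 and 6.56% in mouse 9. Within that pool miR-30a-5p held 47.2%, 44.8% and 46.9% in mice 1, 3 and 9, and miR-30d-5p held 28.9%, 32.1% and 33.6%. miR-30c-5p held 17.5%, 16.6% and 13.8%. These 3 arms account for nearly all of the pool.

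miR-30e-5p held 3.85% ± 0.285 of the pool and miR-30b-5p 2.31% ± 0.158 (SD, n = 3). miR-30b-5p and miR-30c-5p, the pair tied to the thermogenic program, together held 19.8%, 19.1% and 15.9% in mice 1, 3 and 9. The 3 other arms held the remaining 81.7% ± 2.06. Mouse 9 had the lowest share of miR-30b-5p and miR-30c-5p.

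**Figure D2:**
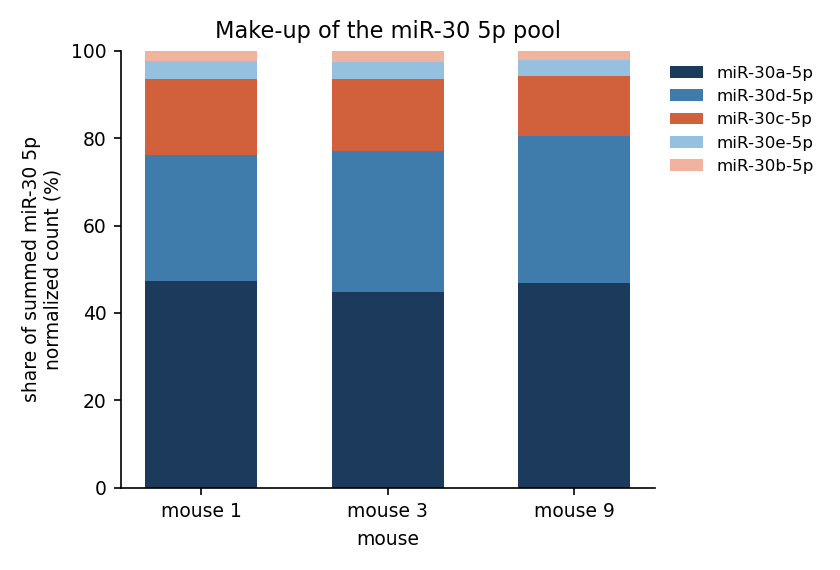
Share of each arm in the summed miR-30 5p normalized count (vertical axis, percent) in mice 1, 3 and 9 (horizontal axis), stacked. miR-30a-5p holds 44.8% to 47.2% in each mouse, and the part of miR-30c-5p is smallest in mouse 9 at 13.8%.

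Hairpins of one pair can be made from a common primary transcript, yet their 5p products differed in level in every mouse. On chromosome 15 miR-30d-5p stood above miR-30b-5p by 3.66, 3.69 and 3.95 log2 units in mice 1, 3 and 9, a mean of 3.77 ± 0.16 that corresponds to a 13.6-fold higher linear value on this scale. On chromosome 1 miR-30a-5p stood above miR-30c-5p by 1.54 ± 0.20, and on chromosome 4 miR-30c-5p stood above miR-30e-5p by 2.05 ± 0.08 (SD, n = 3). The latter 2 values set a product of 2 hairpins beside a product of 1. The exact sign-flip test gave p = 0.25 for each of the 3 pairs, before and after adjustment over them.

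Each 3p arm comes from 1 hairpin, so the 3p arms separate the miR-30c loci. miR-30c-2-3p of chromosome 1 read 9.85, 9.65 and 9.83 in mice 1, 3 and 9, while miR-30c-1-3p of chromosome 4 read 5.53, 6.72 and 4.96. The groups did not overlap, and the miR-30c-2-3p level exceeded the other by 4.04 ± 1.0 (SD, n = 3; log2 units) in 3 of 3 mice. This difference is one of 3p arms and does not say how much of miR-30c-5p each locus gave.

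Within both of these pairs of hairpins the 3p arm of the partner was higher than that of miR-30c. miR-30a-3p exceeded miR-30c-2-3p by 1.56 ± 0.17 log2 units on chromosome 1, and miR-30e-3p exceeded miR-30c-1-3p by 3.82 ± 0.65 on chromosome 4, each in 3 of 3 mice. miR-30e-3p and miR-30c-2-3p, of different chromosomes, overlapped in level and differed by 0.22 ± 0.35. Over the 7 such pairs of arms compared, the exact sign-flip test gave p = 0.25 where one direction held in all mice (0.35 adjusted) and 0.5 otherwise.

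The hairpins themselves, from RefSeq on GRCm38.p6 and with both arms in capitals, show the strands whose use is compared next.
Mir30a: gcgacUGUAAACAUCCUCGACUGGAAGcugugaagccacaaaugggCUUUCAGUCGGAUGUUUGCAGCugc
Mir30e: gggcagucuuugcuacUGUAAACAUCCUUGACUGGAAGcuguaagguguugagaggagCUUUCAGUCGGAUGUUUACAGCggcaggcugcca
Mir30c-1: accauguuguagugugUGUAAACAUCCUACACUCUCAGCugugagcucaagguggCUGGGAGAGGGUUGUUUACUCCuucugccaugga
Mir30c-2: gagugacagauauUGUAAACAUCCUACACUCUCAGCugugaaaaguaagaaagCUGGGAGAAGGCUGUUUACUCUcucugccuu

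In the hairpins of miR-30a, miR-30b, miR-30d and miR-30e the 5p strand was the higher one, by amounts that differed widely. Strand use was tested with limma's moderated one-sample test of the log2 ratio of 5p to 3p, two-sided, over 165 hairpins whose larger arm averaged 100 or more normalized counts. With a Benjamini-Hochberg adjusted p below 0.05, 54.5% of these hairpins were called as higher in 5p and 43% as higher in 3p. The hairpins of miR-30a, miR-30b, miR-30d and miR-30e, 4 of 4, had the 5p arm higher, as did both pairings of miR-30c-5p with its 3p arms. With 54.5% of all hairpins called in that direction, the count of miR-30 hairpins is read beside that share and the sizes carry the description.

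miR-30e leaned least to its 5p strand. Its log2 ratio was 3.06, 2.85 and 3.18 in mice 1, 3 and 9, a mean of 3.03 (SE 0.14, limma adjusted p = 4.45e-05), at rank 81 of 165 from the most 5p-leaning hairpin. As a share of both arms, miR-30e-3p held 10.6%, 12.1% and 9.82%. miR-196a-2 (3.30) and miR-532 (3.00) were its neighbours in the order.

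miR-30a had ratios of 4.96, 4.89 and 4.66 in mice 1, 3 and 9, a mean of 4.84 (SE 0.14, limma adjusted p = 9.77e-06) at rank 58. Its 3p arm held 3.10%, 3.25% and 3.79% of both arms. The pairing of miR-30c-5p with miR-30c-2-3p lay directly above it at 4.86 (SE 0.16), and miR-15b lay directly below at 4.77. The true lean of the Mir30c-2 hairpin cannot be had from that pairing, since miR-30c-5p also holds the product of Mir30c-1.

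miR-30b and miR-30d leaned far more to the 5p strand. miR-30d had ratios of 12.15, 9.78 and 10.49 in mice 1, 3 and 9, a mean of 10.81 (SE 0.51, limma adjusted p = 4.85e-05) at rank 13, between let-7c-2 (10.91) and let-7a-1 (10.61). miR-30b had a mean of 8.43 (SE 0.17, limma adjusted p = 3.91e-06) at rank 24, between miR-181b-1 (8.49) and miR-486 (8.32). The 3p reading was the floor value in 1 mouse for miR-30d and in 2 for miR-30b, so the sizes of both ratios depend on the constant of the scale. At the floor a ratio varies with the 5p arm alone, so these SEs and adjusted p-values do not measure the spread of both arms. With a constant of 1 the limma adjusted p was 0.00194 for miR-30d and 0.000139 for miR-30b. With a constant of 1 in place of 10 the ratio was 12.12 for miR-30d and 11.28 for miR-30b, and with 40 it was 9.66 and 6.52.

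The pairing with miR-30c-1-3p had a ratio of 8.90 (SE 0.34, limma adjusted p = 2.21e-05) at rank 20, next to miR-186 (8.96) and miR-497 (8.50). Ranks of ratios with a 3p arm at the floor, as for miR-30b and miR-30d, depend on the constant and on the 5p level.

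**Figure D3:**
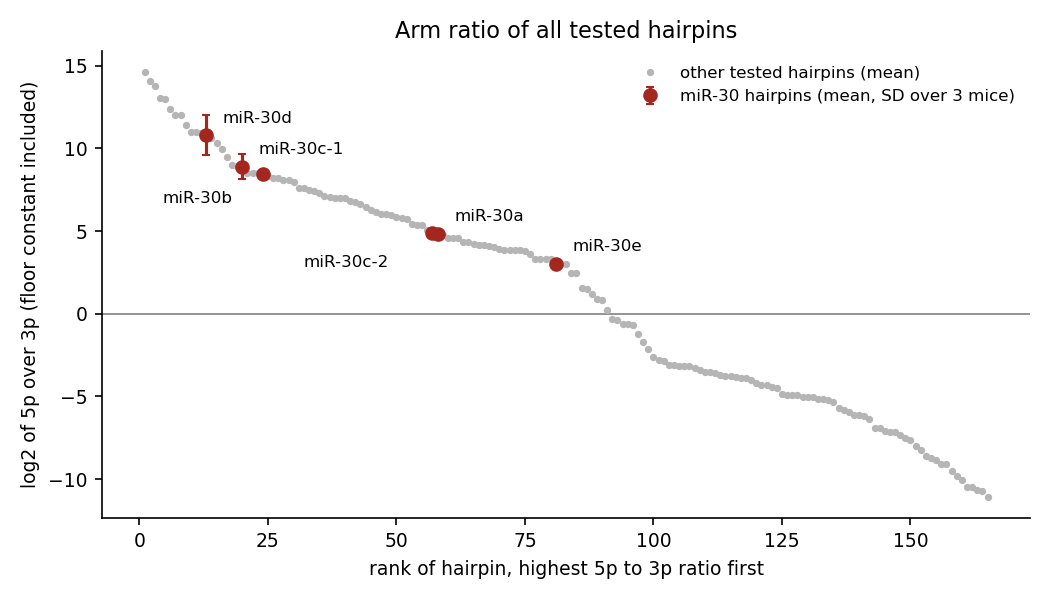
Mean log2 ratio of 5p over 3p (vertical axis, with the floor constant of 10 included) of the 165 tested hairpins, ranked from the most 5p-leaning (horizontal axis). The 6 miR-30 pairings (large points with SD over 3 mice) run from miR-30d at 10.81 to miR-30e at 3.03, all above 0.

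In each mouse miR-30e leaned least to its 5p strand, then miR-30a, with miR-30b and miR-30d above both. The 4 member hairpins form 6 pairs, and in each the ratios had one direction in 3 of 3 mice and did not overlap. For miR-30d with miR-30b the ratios did overlap with a constant of 1. Over all 165 tested hairpins the mean ratios ran from 14.62 to -11.06, with a median SD of 0.31. The share of pairs without overlap among other hairpins was not counted, so the 6 pairs are not read as particular to miR-30. miR-30a leaned more to 5p than miR-30e by 1.90, 2.04 and 1.49 log2 units in mice 1, 3 and 9, a mean of 1.81 ± 0.29 (SD, n = 3). The differences were 5.40 ± 0.44 between miR-30b and miR-30e (8.23 with a constant of 1 and 3.54 with 40) and 3.59 ± 0.17 between miR-30b and miR-30a (6.44 and 1.69), so their sizes rest on the constant. The exact sign-flip test gave p = 0.25 for every pair, its lowest value, also after adjustment over the 6 pairs.

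Between miR-30a and miR-30e each strand differs by 1 base, and none of these 4 arms was near the floor. Their 5p arms differed by 3.59 ± 0.12 log2 units and their 3p arms by 1.78 ± 0.40. On the linear scale this is 12.0-fold for 5p and 3.44-fold for 3p. Whether reads of miR-30a placed with miR-30e, or the reverse, take part in this was not tested.

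miR-30d and miR-30b, a pair on chromosome 15, could not be ordered by strand use. Their ratios differed by 2.37 ± 1.28, but with both 3p arms at the floor in mouse 1 the value there, 3.66, is the difference of the 5p levels, and with a constant of 1 the ratios overlapped. As a share of both arms, 3p held 0%, 0.0951% and 0.0505% for miR-30d and 0%, 0% and 0.0661% for miR-30b in mice 1, 3 and 9, where 0% stands for an arm at the floor.

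Some of the family's 3p strands were among the most abundant 3p strands of hairpins that lean to 5p. Among the 90 hairpins with 5p higher, the level of the 3p arm was second highest for miR-30a-3p (2589 ± 288 normalized counts), then came miR-30c-2-3p (868 ± 64.4) and miR-30e-3p (752 ± 138, SD, n = 3). let-7d-3p alone was higher, at 4228, and miR-125b-2-3p followed at 593. The median of these 90 3p arms was 4.50 normalized counts, and 36 of them were at the floor in all mice. By share of both arms, miR-30e was at rank 8 of 90, miR-30a at 16 and miR-30c-2 at 17.

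**Figure D4:**
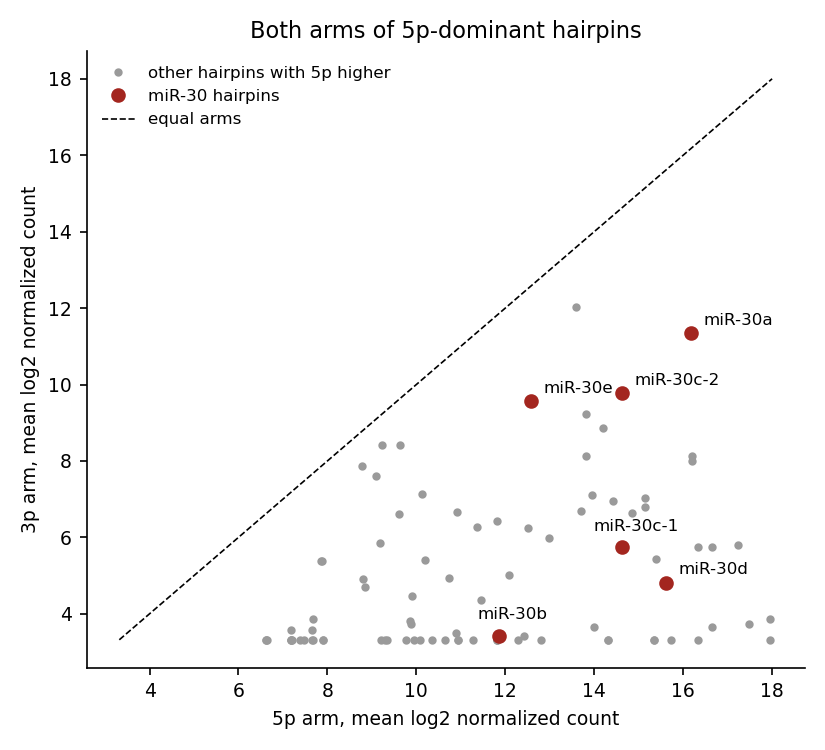
Mean log2 normalized count of the 3p arm (vertical axis) against that of the 5p arm (horizontal axis) for the 90 hairpins with 5p higher, with equality dashed. miR-30a, miR-30c-2 and miR-30e lie among the highest 3p arms of these hairpins. miR-30c-1 and miR-30d lie at ranks 28 and 36 of 90 by 3p level, and miR-30b lies close to the floor.

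The bases at the 5′ ends followed a split that was common in the table. Each of the 3 miR-30 5p arms with a sequence begins with U and each of the 4 3p arms with C. Over the 161 hairpins called in either direction, the higher arm began with U in 83 of 143 with a sequence (58.0%) and the lower arm in 20 of 140 (14.3%). The lower arm began with C in 53 of 140 (37.9%). These counts go by pairing, so an arm shared between pairings is counted in each, and the miR-30 pairings are included. This is a description of the letters and was given no test.

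The 7 members that averaged 100 or more normalized counts had SDs of at most 0.27 log2 units. The SD over 3 mice was 0 for miR-30a-5p, 0.12 for miR-30e-5p, 0.13 for miR-30d-5p and miR-30b-5p, 0.16 for miR-30a-3p, 0.20 for miR-30c-5p and 0.27 for miR-30e-3p, in log2 units. Of these 7 members 6 were below 0.22, the median over all 194 that averaged 100 or more, and miR-30e-3p was above it. The median of the 7 was 0.13. The members below that level are not in this count, and one of them, miR-30d-3p, had the widest spread of all 9, with an SD of 1.34. Because the 3 columns hold almost the same set of values, an SD here reflects mainly shifts of rank. The SD of 0 for miR-30a-5p thus goes with its rank of 9 in each mouse. Over the 90 miRNAs that averaged 1000 or more the median SD was 0.19, and 5 of the 6 members at that level were below it. No test was made.

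Among 186 other miRNAs at that level, likeness to the summed 5p arms was measured as the root mean square distance of centred log2 values over the 3 mice. The sum read 17.26, 17.33 and 17.27, and the 5 nearest were miR-186-5p (0.00821), miR-27b-3p (0.0330), miR-29a-3p (0.0340), miR-181c-5p (0.0366) and miR-100-5p (0.0372). The median distance was 0.194. The nearest to the summed 3p arms were miR-1843a-5p (0.00960), miR-350-5p (0.0146) and miR-320-3p (0.0166). With 3 mice and small SDs these lists hold mostly steady miRNAs.

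**Figure D5:**
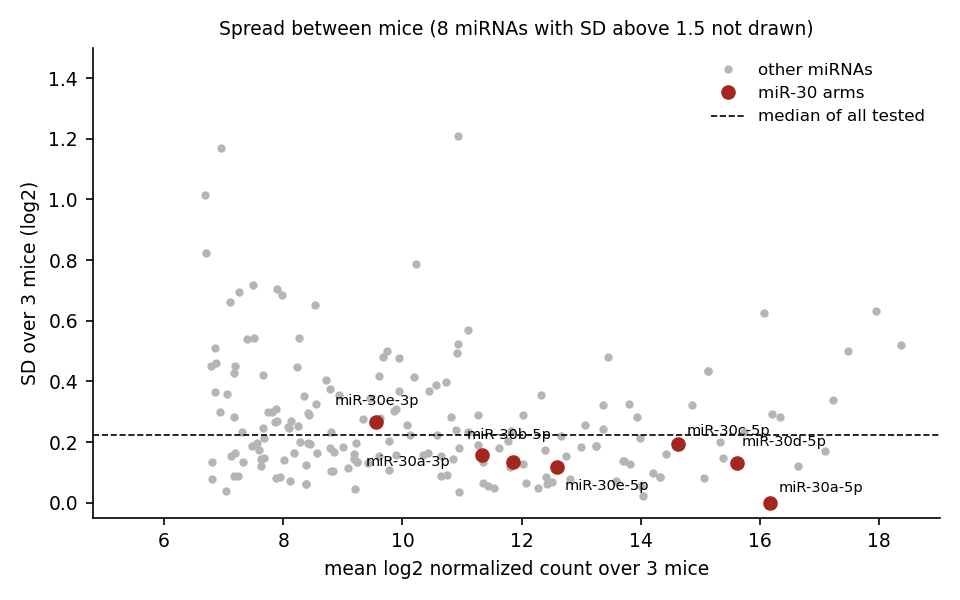
SD over 3 mice (vertical axis, log2 units) against mean log2 normalized count (horizontal axis) for the 194 miRNAs that averaged 100 or more, with the 7 miR-30 members that passed it as large points and the median SD of 0.22 dashed. The 8 miRNAs with an SD above 1.5 are not drawn. 6 of the 7 members lie below the median.

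Markers of other tissues were present at unequal levels in the 3 mice. The striated muscle list summed to 0.163% of the normalized value in mouse 1, 3.57% in mouse 3 and 2.79% in mouse 9. Of its 7 members 2 (miR-133a-3p and miR-133b-3p) were detected in each mouse, and 2 (miR-208a-3p and miR-499-5p) in none. In mice 1, 3 and 9 miR-133a-3p read 11.94, 16.38 and 16.02, and miR-133b-3p read 3.83, 9.49 and 9.65. The sum is thus mostly that of miR-133a-3p. The heart and skeletal muscle miR-1a-3p read 3.32, 5.53 and 3.44. miR-206-3p read 3.32, 3.83 and 3.32, and miR-208b-3p read 3.32, 3.32 and 5.20. miR-30d-5p, miR-30d-3p and miR-30a-3p were lowest in mouse 1, where the muscle list was lowest too, but miR-30a-3p was highest in mouse 9. miR-30b-5p, miR-30c-5p, miR-30e-5p and miR-30e-3p were lowest in mouse 9 instead. miR-30a-5p was equal in all mice, and miR-30b-3p was at the floor in mice 1 and 3. The part of muscle RNA in the spread of the members was not tested.

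The epithelial list of 7 miRNAs summed to 0.0692%, 0.157% and 0.0378% in mice 1, 3 and 9, with 4 members above the floor in all mice. miR-203-3p of this list and miR-133a-3p of the muscle list also stand on the fat lists below. In mouse 9 miR-200a-3p, miR-200c-3p and miR-141-3p stood at the floor. Of the list, miR-200a-3p (6.81, 6.08 and 3.32) and miR-200b-3p (8.40, 7.73 and 4.19) were highest in mouse 1, and the others in mouse 3. miR-30b-5p and miR-30e-3p were highest in mouse 3 and lowest in mouse 9. miR-30c-5p and miR-30e-5p were lowest in mouse 9, where miR-30a-3p and miR-30b-3p were highest. The part of epithelial RNA in these differences was not tested.

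Among miRNAs known to promote adipocyte formation, apart from miR-30, all 14 listed were seen in each mouse, and their median was 13.34 log2 units. The 3 of them above miR-30a-5p were miR-26a-5p (17.95 ± 0.63), miR-143-3p (17.10 ± 0.17) and, just above it, miR-181a-5p (16.21 ± 0.29; SD, n = 3). By level miR-30a-5p thus ranked with the leading adipogenic miRNAs of this tissue, and 8 of the 14 stood above miR-30b-5p. Of the 11 listed as inhibitors of adipocyte formation or thermogenesis, 1 stood above miR-30a-5p (let-7a-5p, 16.34 ± 0.28) and 7 above miR-30b-5p. In the whole table, 287 of 1251 rows were seen in each mouse. miR-30a-5p held rank 9 in each mouse, and miR-30b-5p ranks 56, 53 and 57 in mice 1, 3 and 9.

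Of 10 other miRNAs known to promote thermogenic fat, none had a mean above that of miR-30b-5p. Above the floor in all mice were 8 of the 10, against 287 of all 1251 rows. Their highest members were miR-365-3p (11.54 ± 0.05), miR-182-5p (10.94 ± 1.21) and miR-193b-3p (10.93 ± 0.52). Few rows of any kind stood above miR-30b-5p, so its place above this list does not set it apart. The hepatocyte strands miR-122-5p and miR-122-3p and 4 of 6 testis miRNAs were at the floor in all mice. Only 363 of all 1251 rows were seen in at least 1 mouse. Most rows of any kind were thus at the floor, and these counts do not check the tissue. The other testis miRNAs were detected in each mouse, miR-34c-5p at 7.83, 7.64 and 7.54 log2 units and miR-34b-3p at 4.13, 4.08 and 4.19, and the part of testis RNA in the members' levels was not tested. No miRNA in the table defines adipocytes by itself.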

How the data were processed

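Small RNA libraries were made by the Illumina small RNA protocol, per the labels' protocols. The authors deposited log2 normalized counts in 1 table. Per the series' design text, the Gunaratne pipeline was used, about 13.8 M reads of each sample were placed on mm10, and counts were divided by usable reads and raised by 40. The deposited log2 values have a floor of 10 on the linear scale, not 40, and look quantile normalized, a step no source used here states. No source used here names the aligner or the miRNA annotation. The submitters' processing notes also name mm10.

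Linear values are 2 to the power of the deposited value, less 10, and the log scale keeps the 10. A 3p or 5p row numbered by locus was paired with the shared row of the other arm (484 hairpins, 165 with a larger arm of mean at least 100), so some pairings share a row. The arm ratios were tested with limma 3.58.1 in R 4.3.3. The arm test was tried on simulated data. Differences within mice used exact sign-flip tests. Sequences are from RefSeq (GRCm38.p6), matched by name for 1001 of 1251 rows, and positions are from GENCODE M21.

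The named miRNAs were the members, the miR-30c 3p arms, rows of equal seed, the 5 and 3 nearest in pattern, the 3 highest of each list and the neighbours in arm ratio. Others (markers at the floor, the highest 3p arms) were named after their values were seen. The members and lists were chosen with earlier results of these data known. The endothelial, leukocyte and erythroid lists were present too, with medians of 13.02, 9.32 and 5.50 log2 units. Alternatives were other constants, scaling, filters, limma priors, arm pairing by one name and leaving out each mouse.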

Additional observations from a re-analysis of the deposited data

How the results depend on the processing

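Over 314 alternative values of 46 results, 299 kept their direction and stayed within the spread between mice, on the same side of the threshold or within 1.5 times the count, and none reversed. Of the other 15 values, 2 were counts of calls, 3 were levels of miR-30a-5p, and 10 were results with miR-30b or miR-30d under another constant. Among the 314, 138 came from leaving out a mouse. With 3 mice, leaving out a mouse cannot shift a mean by more than the SD. Levels, differences and shares from those alternatives could therefore not count as moved, and they are no evidence of stability. The 6 miR-30 arm pairings passed limma's test in all 64 alternatives that gave a value, with an adjusted p of at most 0.00513, for miR-30d without mouse 3. Raising the filter on the larger arm to a mean of at least 1000 left 93 hairpins, so the number with 5p higher fell to 57 and the number with 3p higher to 36. Without any filter they were 108 and 93, and with hairpins whose arms carry one name, chosen after seeing the data, 66 and 59. Of the single members, miR-30b-3p moved with the constant (0.57 with 1 and 5.35 with 40). miR-30a-5p counts among those that moved because its SD is 0, and it lay between 16.17 and 16.18. The difference of arm ratios between miR-30b and miR-30a was 6.44 with a constant of 1 and 1.69 with 40. With a constant of 1 the non-overlapping pairs of arm ratios fell from 6 to 5. The depth of each library, which the values do not give, limits what can be said of miR-30b-3p and miR-30d-3p. Arms and members were compared within each mouse, and a replicate block between groups could not be fitted with 1 group.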

Other observations

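miR-30f, annotated on the strand opposite Mir30e at the same positions (chr4:120772606-120772697, plus strand, GRCm38), is no member of the list above and stood at the floor in all 3 mice. Its RefSeq sequence (GRCm38.p6) is shown with bases 2 to 8 in capitals, since its seed is shifted by 1 base against that of the 5p arms.
miR-30f: gUAAACAUccgacugaaagcuc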
